A study of Mus musculus with 8 samples.

Results

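The ascending and descending parts of the aorta were compared in wild-type (WT) newborn mice, using 4 of the 8 arrays of a microarray series. The members of the comparison were chosen by their labels alone: 2 arrays of WT ascending aorta and 2 of WT descending aorta. All pups were at postnatal day 0 on the albino C57BL/6J background. The other 4 arrays held the same segments from Lox knockout (KO) pups, which lack lysyl oxidase; this enzyme oxidises lysines of elastin and collagen so that crosslinks can form. No group carried a treatment, and the labels give no further allele, litter or sex. Each array measured total RNA from 1 pool of tissue from 8 pups of like genotype, so n = 2 pools per group throughout, and a value describes a pool and not a pup. The labels place the ascending segment from the aortic valve up to where the ductus arteriosus joins, and the descending segment from the vena cava down to the diaphragm. Nothing in the labels says how far fat, nerve, lung or thymus around the vessel was trimmed away.

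The wall of the thoracic aorta is built of smooth muscle cells and layers of elastin, lined by endothelium and wrapped in a fibroblast-rich adventitia. Its smooth muscle is known to have several embryonic sources. Cells of the ascending aorta derive from the second heart field and from cardiac neural crest, whereas those of the descending thoracic aorta derive from somites and the mesoderm beside them. Hox genes encode homeobox transcription factors that mark position along the body axis, and their order along each chromosome cluster follows the order of their expression from head to tail. Sympathetic ganglia, brown fat and lung lie beside the descending aorta, and the heart and thymus lie beside the ascending part.

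Levels are log2 RMA values, so a difference of 1 is a 2-fold difference in signal. Differences are given as ascending minus descending, with their standard error (SE), and genes are said to be higher in a segment only at a limma adjusted p under 0.05 over all 16635 genes tested. In the WT arrays the segments differed by this test in 247 genes, which is 1.48% of genes tested. Of these, 85 (0.511%) were higher in the ascending and 162 (0.974%) in the descending aorta. The arrays of the segments did not overlap in any of the 247, against 42.4% of all genes tested (19.8% with the ascending arrays above and 22.6% below), and an unadjusted p under 0.05 was reached by 12.3%. At least 2-fold differences were found for 107 of the 247, with 28 of them higher in ascending and 79 higher in descending aorta, and the smallest difference called was 0.52.

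The arrays of 1 segment correlated across genes at 0.9877 in ascending and 0.9915 in descending aorta, and arrays of different segments at 0.9811 to 0.9857. With 2 pools a side the number of arrays limits the precision. The count fell to 65 without WT ascending replicate 1, to 84 without WT descending replicate 1 and to 63 without WT descending replicate 2, and to 166 without WT ascending replicate 2. Of 155 named genes that were called, 38 kept the call under all of the up to 20 alternative settings that tested them, and none reversed its direction in any. Those that lost the call when 1 WT array was left out are named as such with their groups. Leaving out a KO array, which bears on the WT comparison through the shared spread, left 223 to 228 genes called. In bulk RNA, fewer cells of a type and less RNA per cell cannot be told apart, which applies to each gene below.

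The labelled tissue was checked against genes that define it. The contractile smooth muscle genes Acta2, Tagln and Cnn1, named after their values were seen, and the smooth muscle myosin Myh11 differed by 0.08, -0.10, -0.06 and -0.10, none of them called. Elastin (Eln) read 12.04 and 12.21 on the ascending and 12.10 and 12.27 on the descending arrays, so the segments overlapped. Of 29 contractile genes tested, only Pdlim3 was called, and the median difference of the list was 0.06, beside -0.00 for all genes tested. Small differences leaned to the ascending side, with 21 of the 29 above 0. In 14 both ascending arrays lay above both descending arrays, beside 19.8% of all genes, and in 5 the reverse held, beside 22.6%. Pdlim3, an actin-associated LIM protein, read 11.69 and 11.74 against 11.23 and 11.16, a difference of 0.52 (SE 0.10, adjusted p = 0.039). That call was lost when any 1 of the 8 arrays was left out. Lox was present at 11.47 and 11.60 in ascending and 11.41 and 11.24 in descending WT aorta, a difference of 0.21 that did not pass (adjusted p = 0.499). It read 8.51 to 8.87 on the KO arrays, and no source used here says whether its probes fall inside the deletion.

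**Figure D1:**
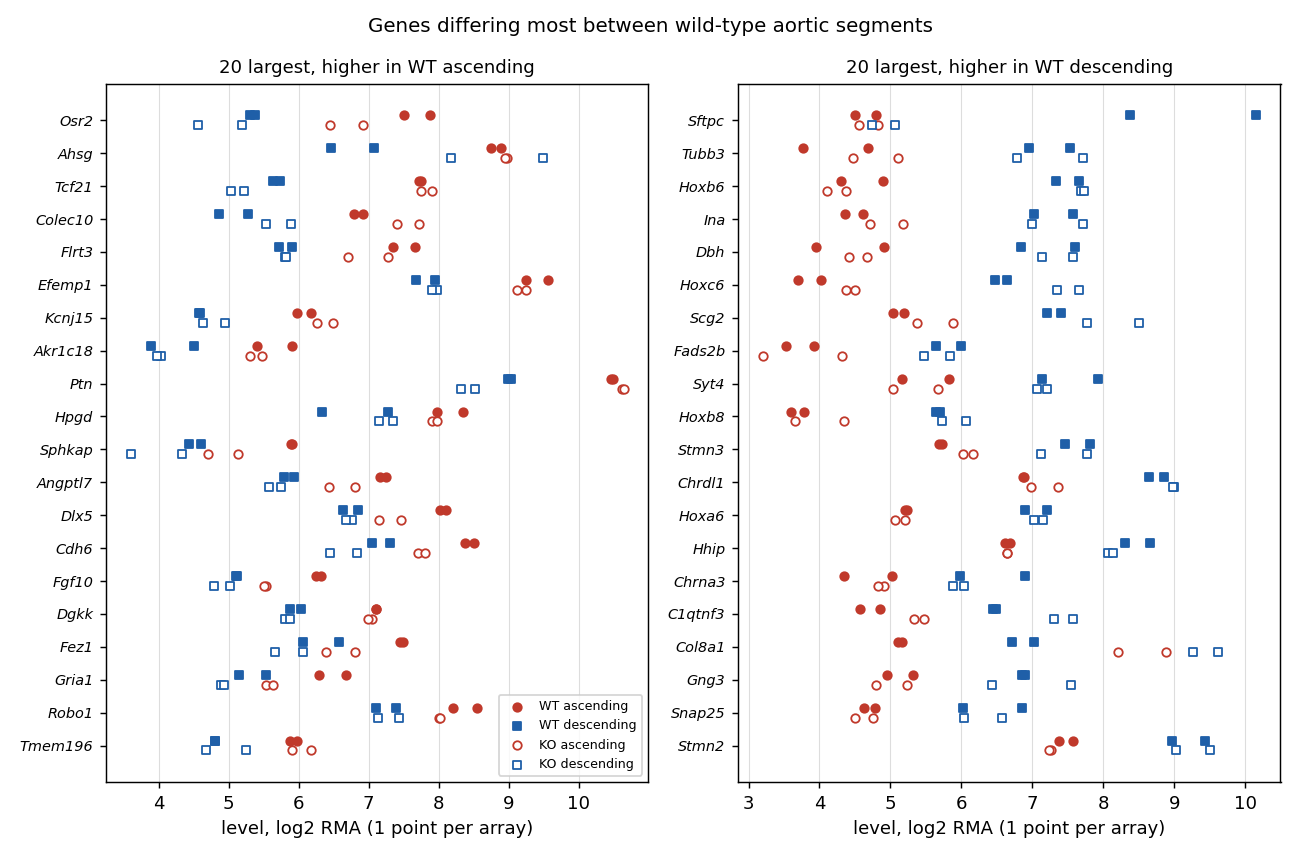
Level (log2 RMA, horizontal axis) of the 20 genes with the largest WT difference in each direction, 1 point per array; red circles are ascending and blue squares descending, filled for WT and open for KO. The filled red and blue points of every gene are apart, as the rule that picked them requires, and the open points of Ahsg and Sftpc overlap between segments.

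Hox genes of the middle paralog groups were higher in descending aorta. Of 36 Hox genes measured, 32 passed the filter on dim genes, and 12 of these were higher in descending aorta and 0 in ascending, beside 0.974% of all genes called in that direction. The 12 lay between paralog groups 4 and 9, where 17 genes were tested, and 8 of them belonged to groups 6 to 8. None of the 7 tested genes of groups 1 to 3 was called, with differences from -0.48 to 0.36. None of the 8 of groups 10 to 13 was called either, with differences from -0.14 to 0.15 and levels of 3.88 to 5.51 on the WT arrays; the filter level was 4.11. By cluster, 4 of 8 Hoxa, 4 of 10 Hoxb, 3 of 7 Hoxc and 1 of 7 Hoxd genes were called.

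Hoxb6 had the largest of these differences. It read 4.30 and 4.90 on the ascending arrays and 7.33 and 7.66 on the descending arrays, 7.43-fold higher in descending aorta (difference -2.89, SE 0.20, adjusted p = 0.000869). Both descending pools lay far above both ascending pools, with no overlap. Hoxc6 read 4.02 and 3.70 in ascending and 6.65 and 6.48 in descending aorta, a difference of -2.70 (SE 0.15, adjusted p = 0.000387), the smallest adjusted p of the comparison together with that of Tcf21. The ascending level of Hoxc6 was at or below the filter level, as were the ascending levels of Hoxb8, Hoxb7 and, in 1 of 2 pools, Hoxc8, so that these genes passed the filter through the descending pools, where they are high, and had to differ if tested at all. Without the filter on dim genes 10 Hox genes were called.

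Hoxb8 read 3.60 and 3.78 against 5.70 and 5.64, a difference of -1.98 (SE 0.21, adjusted p = 0.00461). Hoxa6 differed by -1.83 (SE 0.13), Hoxa5 by -1.72 (SE 0.18) and Hoxc8 by -1.70 (SE 0.20). These 3 were thus between 3.25-fold and 3.55-fold higher in the descending segment. Smaller differences were called for Hoxc4 (-1.22), Hoxa9 (-1.13), Hoxb5 (-1.11), Hoxb7 (-1.05), Hoxa7 (-0.83) and Hoxd8 (-0.72). Hoxb5 had another probe set, which differed by -2.08, in the same direction. Hoxb4, with 6.19 and 6.05 against 6.71 and 6.91, differed by -0.69 and did not pass (adjusted p = 0.0695), although its arrays did not overlap.

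Neighbouring genes of 1 cluster could differ in their calls. In the Hoxb cluster Hoxb5, Hoxb6, Hoxb7 and Hoxb8 lie next to each other and were all called, while Hoxb9 read 4.77 and 4.67 in ascending and 4.93 and 4.82 in descending aorta (difference -0.16, adjusted p = 0.665). In the Hoxa cluster the run was Hoxa5, Hoxa6, Hoxa7 and Hoxa9, and Hoxa4 differed by 0.02. Hoxc8 and Hoxc6 were neighbours among the genes of the table, whereas Hoxc9 differed by -0.13 (adjusted p = 0.718). Hoxa2, of an anterior group, was the Hox gene with the highest difference, 0.36 (adjusted p = 0.193), with 7.80 and 7.98 against 7.55 and 7.51. None of the 8 TALE homeobox partners of Hox proteins was called, among them Meis1 (0.25), Meis2 (0.32), Pbx3 (0.26) and Pknox1 (-0.22).

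Hoxa5, Hoxa6, Hoxb5, Hoxb6, Hoxb8 and Hoxc6 kept the call under all settings that tested them. Hoxc8 lost it without WT descending replicate 1, Hoxb7 and Hoxc4 without either ascending array or without WT descending replicate 2, Hoxa9 without either ascending array or without WT descending replicate 1, and Hoxa7 and Hoxd8 without any 1 of the 4 WT arrays. The count of 12 became 7 without WT ascending replicate 1 and 7 without WT ascending replicate 2. Markers of sympathetic neurons, which are known to express Hox genes too, were higher in descending aorta in the same pools (11 of 27 tested, described below), and their part in the Hox result was not tested.

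**Figure D2:**
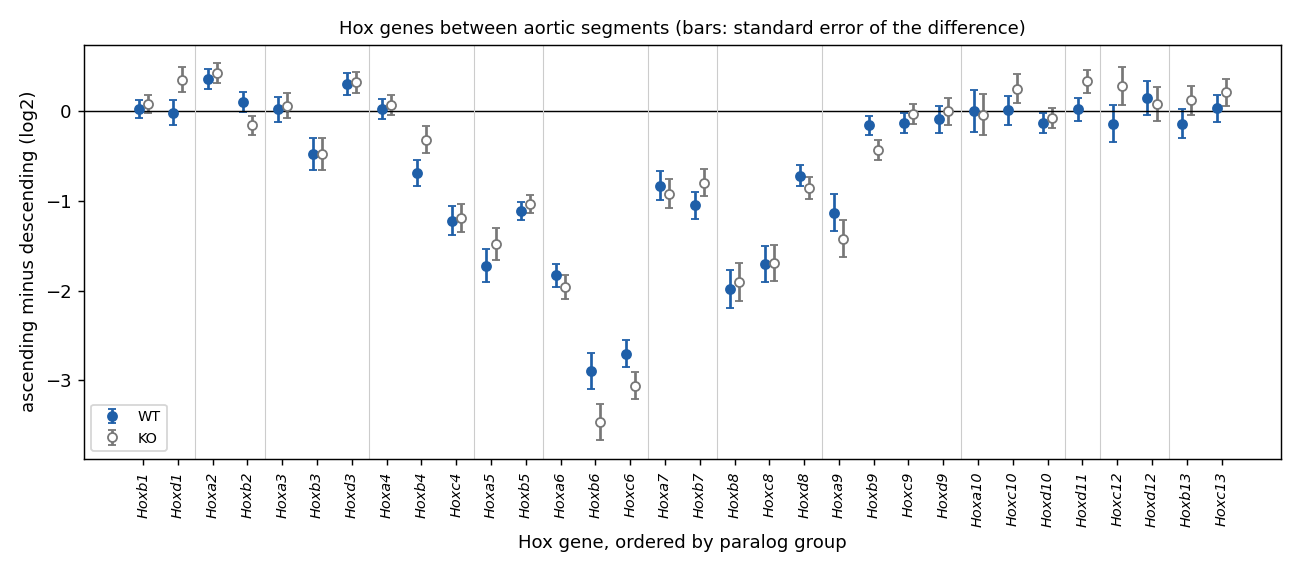
Difference between segments (ascending minus descending, log2, vertical axis) of the 32 Hox genes tested, ordered by paralog group, with WT as filled blue and KO as open grey points and bars for the standard error (n = 2 pools a group). Points of groups 6 to 8 all lie below 0 in both genotypes, from -0.72 (Hoxd8) to -2.89 (Hoxb6) in WT, and those of groups 10 to 13 lie near 0.

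Because neighbouring Hox genes moved together, the promoters of the called members were searched for the binding motif of the Cdx factors, which act upstream of Hox genes in the trunk, written TTTATNG and read on both strands. RefSeq promoters (300 bases around the start of transcription, GRCm38.p6) were at hand for 7 of the 12, and Hoxb8 alone held the motif, beside 10.9% of all 32851 promoters in the table. The promoter of Hoxb8 (chr11:96281655-96281954, plus strand) is shown since it is 1 of the 7 and holds 3 matches, marked in capitals:
Hoxb8 promoter: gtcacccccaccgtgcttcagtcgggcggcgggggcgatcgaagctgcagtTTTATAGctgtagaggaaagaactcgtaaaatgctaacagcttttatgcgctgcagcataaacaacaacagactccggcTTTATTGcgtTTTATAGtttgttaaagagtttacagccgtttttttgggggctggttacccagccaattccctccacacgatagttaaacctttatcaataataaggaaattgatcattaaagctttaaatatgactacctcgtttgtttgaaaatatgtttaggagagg
The letters TATAAA, searched as a TATA box on both strands, also matched this promoter through their overlap with TTTATAG, and occur in 13.6% of all promoters. E boxes (CANNTG) were found in 4 of the 7, beside 72.3% of all promoters. A match of letters is a description and not a measured binding site.

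Other transcription factors of the mesenchyme separated the segments in both directions. Osr2, a zinc finger factor of limb, palate and kidney mesenchyme, had the largest difference of all genes called higher in ascending aorta. It read 7.87 and 7.50 on the ascending and 5.31 and 5.37 on the descending arrays, 5.07-fold higher in ascending (difference 2.34, SE 0.23, adjusted p = 0.0034). Tcf21, a basic helix-loop-helix factor of epicardium and adventitial fibroblasts, read 7.74 and 7.72 against 5.73 and 5.64, a difference of 2.04 (SE 0.11, adjusted p = 0.000387). Both ascending pools lie well above both descending pools for either gene. The other adventitial markers did not follow Tcf21: it was the only 1 of 21 tested fibroblast genes called, and Pdgfra, named after its values were seen, differed by 0.01.

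Dlx5, a homeobox factor of neural crest mesenchyme in the pharyngeal arches, read 8.02 and 8.10 in ascending and 6.85 and 6.63 in descending aorta, a difference of 1.32 (SE 0.14, adjusted p = 0.00405). Its genomic partner Dlx6 read 5.68 and 6.41 against 5.06 and 5.0 and did not pass (difference 1.01, adjusted p = 0.0755), while the transcript Dlx6os1 from the same locus, named after its values were seen, read 4.73 and 5.09 against 3.94 and 4.03 (difference 0.93, adjusted p = 0.0253). Both descending values of Dlx6os1 were below the filter level, so it passed the filter through the ascending pools. Among 20 tested neural crest factors Dlx5 was called higher in ascending and Prrx1 higher in descending aorta. Prrx1, a homeobox factor of limb and head mesenchyme, read 8.68 and 8.76 against 9.45 and 9.46 (difference -0.73, adjusted p = 0.0149). The list as a whole had a median of 0.05.

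Among 23 factors of somite, lateral plate and splanchnic mesoderm, Tcf21 and Osr2 were higher in ascending and Foxf2 and Meox2 in descending aorta. Foxf2, a forkhead factor of gut and lung mesenchyme, read 3.85 and 4.03 in ascending, at or below the filter level, and 5.32 and 4.88 in descending aorta (difference -1.16, SE 0.16, adjusted p = 0.0117). Meox2, a homeobox factor of somites and of vascular cells, read 7.41 and 7.24 against 8.11 and 8.06 (difference -0.76, adjusted p = 0.0462). Of 24 second heart field and outflow tract factors, 0 were called higher in ascending aorta, although 18 were above 0 (list median 0.09). In 8 both ascending arrays lay above both descending arrays, beside 19.8% of all genes, and in 3 the reverse held, beside 22.6%. Eya1 was the only member called, higher in descending aorta (-0.75, adjusted p = 0.0432). Hand2 (0.66, adjusted p = 0.15), Tbx20 (0.70, adjusted p = 0.186) and Gata6 (0.39, adjusted p = 0.189) did not pass. Eya2 (-0.87) and the large zinc finger factor Zfhx4 (-0.96), both named after their values were seen, were also higher in descending aorta. Osr2, Tcf21 and Dlx5 kept the call under all settings that tested them. Foxf2 lost it without WT ascending replicate 1 or WT descending replicate 1, Zfhx4 without WT descending replicate 1, Eya2 without WT ascending replicate 1 or either descending array, Dlx6os1 without WT ascending replicate 2 or either descending array, and Prrx1, Meox2 and Eya1 without any 1 of the 4 WT arrays.

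Secreted signals and their receptors differed in several families, with few members each. In the FGF system 2 of 30 tested genes were higher in ascending and 2 in descending aorta, beside 0.511% and 0.974% of all genes. The same shares of all genes stand beside the calls of each list below. Fgf10, a ligand made by second heart field and lung mesenchyme, read 6.32 and 6.25 in ascending and 5.11 and 5.12 in descending aorta (difference 1.17, SE 0.11, adjusted p = 0.00296). Flrt3, a membrane protein that binds FGF receptors and guidance receptors, read 7.66 and 7.35 against 5.91 and 5.72 (difference 1.69, SE 0.19, adjusted p = 0.00532). Fgf7, a ligand for the same receptor isoform as Fgf10, went the other way, at 6.22 and 6.07 in ascending and 7.06 and 7.25 in descending aorta (difference -1.01, SE 0.11, adjusted p = 0.00539). In none of the 3 did the arrays of the segments overlap. Fgf14, an intracellular member, differed by -0.61 (adjusted p = 0.0374). Another probe set of Fgf10 differed by 0.64.

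Ptn encodes the heparin-binding growth factor pleiotrophin. Its level was 10.46 and 10.49 on the ascending and 9.03 and 8.99 on the descending arrays, 2.76-fold higher in ascending aorta (difference 1.46, SE 0.11, adjusted p = 0.000869). The pools of a segment lay close together and the segments far apart. Hhip, a membrane protein that binds and sequesters hedgehog ligands, was 3.56-fold higher in descending aorta, at 6.62 and 6.68 against 8.66 and 8.30 (difference -1.83, SE 0.13, adjusted p = 0.000869). It was the only 1 of 13 hedgehog genes called. The hedgehog receptor Ptch1, itself a hedgehog target, differed by 0.19 (adjusted p = 0.562). Vegfd, a growth factor of lymphatic vessels named after its values were seen, read 8.68 and 8.57 against 10.21 and 10.16 (difference -1.56, SE 0.11, adjusted p = 0.000869).

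Of 29 ligands and antagonists of the TGF-beta and BMP families, Chrdl1 and Gdf10 were higher in descending and Bmp7 in ascending aorta. Chrdl1, a secreted BMP antagonist, read 6.87 and 6.88 in ascending and 8.85 and 8.64 in descending aorta, 3.64-fold higher in descending (difference -1.86, SE 0.14, adjusted p = 0.000935). Bmp7 read 6.69 and 6.16 against 5.35 and 5.38 (difference 1.06, SE 0.17, adjusted p = 0.0257), without overlap but with the ascending pools apart. Smad6, the inhibitory Smad of the BMP branch, was the only 1 of 28 receptors, Smads and targets called, at 8.36 and 8.35 against 7.46 and 7.71 (difference 0.77, adjusted p = 0.0188). The median of that list was 0.12. Tgfb2 (0.35, adjusted p = 0.204), Smad7 (0.33, adjusted p = 0.244) and Id1 (0.33, adjusted p = 0.38) did not pass.

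Of 49 Wnt genes, Wnt16 was higher in ascending aorta (0.81, adjusted p = 0.0147) and the Wnt inhibitor Sfrp5 in descending aorta (-0.66, adjusted p = 0.0369), with both ascending values of Sfrp5 below the filter level. Wnt16 lies next to Cped1, named after its values were seen, which was called in the same direction. Sost, the secreted Wnt antagonist sclerostin, named after its values were seen, read 7.29 and 7.62 in ascending and 6.53 and 6.39 in descending aorta (difference 1.00, adjusted p = 0.0309). No gene of the Notch list (21 tested, median -0.07), the PDGF and IGF list (21, median -0.05) or the retinoic acid list (17, median -0.04) was called; Jag1 differed by -0.28, Igf1r by 0.37 and Aldh1a3 by -0.59.

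Axon and vessel guidance cues were called in both directions, 3 of 48 higher in ascending and 4 in descending aorta, beside 0.511% and 0.974% of all genes. Of the 48, 31 were below 0, with a median of -0.07. In 19 both descending arrays lay above both ascending arrays, beside 22.6% of all genes, and in 14 the reverse held, beside 19.8%. The receptor Robo1 read 8.54 and 8.20 against 7.11 and 7.39 (difference 1.12, SE 0.16, adjusted p = 0.0147), and its ligand Slit2 read 8.11 and 8.02 against 8.74 and 8.69 (difference -0.65, SE 0.10, adjusted p = 0.0212), so receptor and ligand were higher in opposite segments. Sema3c, a semaphorin needed for septation of the outflow tract, was higher in ascending aorta by 0.94 (adjusted p = 0.022), and Sema3a, which repels sympathetic axons, was higher in descending aorta (-0.72, adjusted p = 0.0178). Efna5 was higher in ascending aorta by 0.80 (adjusted p = 0.00958). Plxnd1 (-0.57) and Epha5 (-0.63), named after their values were seen, completed the 4 higher in descending aorta.

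Receptors for circulating peptides were called in 1 direction. Of 33 genes of angiotensin, endothelin, adrenergic, natriuretic and prostanoid signalling, Aplnr and Agtr2 were higher in descending aorta and 0 in ascending. Aplnr, the apelin receptor, read 6.74 and 6.95 against 8.54 and 8.29 (difference -1.58, SE 0.22, adjusted p = 0.0138). Agtr2, the type-II angiotensin receptor of fetal tissue, read 8.96 and 9.07 against 9.76 and 9.86 (difference -0.79, SE 0.10, adjusted p = 0.00887). The neuropeptide Y receptor Npy1r (0.79, adjusted p = 0.0932), Ace (0.48, adjusted p = 0.0645) and endothelin Edn1 (-0.43, adjusted p = 0.0955) did not pass. Regulators of G protein signalling, named after their values were seen, split between the segments: Rgs4 was higher in ascending aorta (0.84, adjusted p = 0.0141) and Rgs2 in descending aorta (-1.34, adjusted p = 0.0233).

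Among the chemokines, Cxcl13, which draws B cells to lymphoid tissue, read 8.69 and 8.73 in ascending and 10.33 and 10.27 in descending aorta (difference -1.59, SE 0.10, adjusted p = 0.00084). Ccl11, an eosinophil attractant, read 7.12 and 6.75 against 8.16 and 8.25 (difference -1.27, SE 0.15, adjusted p = 0.00684). These were the only 2 of 29 chemokines and cytokines called.

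Of the signalling genes above, Ptn, Hhip, Chrdl1, Fgf10, Vegfd and Cxcl13 kept the call under all settings that tested them. Flrt3, Fgf7 and Ccl11 lost it without WT descending replicate 2. Agtr2 lost it without WT ascending replicate 1 or WT descending replicate 2, and Smad6 without either ascending array or WT descending replicate 1. Wnt16, Robo1, Efna5, Aplnr, Bmp7 and Rgs2 lost it without WT ascending replicate 1 or either descending array, and Gdf10 without either ascending array or WT descending replicate 1. Fgf14, Sfrp5, Sost, Cped1, Slit2, Sema3a, Sema3c, Plxnd1, Epha5 and Rgs4 lost it without any 1 of the 4 WT arrays.

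Calls among matrix genes were few in each list. Efemp1, the elastic-fibre glycoprotein fibulin-3, was 3.02-fold higher in ascending aorta, at 9.56 and 9.25 against 7.68 and 7.94 (difference 1.60, SE 0.14, adjusted p = 0.00248). It was the only 1 of 18 elastic fibre genes called. Fbln5, which binds elastin and was named after its values were seen, differed by 0.07, Fbn2 by 0.48 (adjusted p = 0.155), Ltbp2 by 0.34 (adjusted p = 0.162) and Fbln7 by -0.61 (adjusted p = 0.0677). None of the 7 lysyl oxidase and transglutaminase genes was called; Loxl1 differed by 0.19, Loxl3 by -0.19 and Tgm2 by -0.43.

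Collagens called were higher in the descending aorta, with the exception of Col4a5. Col8a1, a short-chain collagen that vascular cells make, read 5.16 and 5.10 in ascending and 7.02 and 6.72 in descending aorta, 3.34-fold higher in descending (difference -1.74, SE 0.22, adjusted p = 0.00835). Col11a1, a minor fibrillar collagen, read 5.61 and 5.79 against 7.11 and 7.17 (difference -1.44, SE 0.11, adjusted p = 0.00125). Both genes were without overlap between segments. The major fibrillar collagens did not pass: Col1a1 differed by -0.25 (adjusted p = 0.382) and Col3a1 by -0.13 (adjusted p = 0.672), and Col11a1 was the only 1 of 11 fibrillar members called. Col12a1, which coats collagen fibrils, differed by -0.76 (adjusted p = 0.0318). Of the 23 tested members of the list that holds Col8a1 and Col12a1, 19 were below 0 and 12 had both descending arrays above both ascending arrays, beside 22.6% of all genes. Of the 11 fibrillar collagens 9 were below 0, and the medians of these lists were -0.10 and -0.09. The basement membrane chain Col4a5 was higher in ascending aorta, at 7.04 and 6.95 against 6.30 and 6.08 (difference 0.81, adjusted p = 0.0337), and its paired chain Col4a6 differed by 0.47 without passing (adjusted p = 0.0819). Col4a5 was the only 1 of 23 basement membrane genes called. Of these, 13 had both ascending arrays above both descending arrays, beside 19.8% of all genes, and the median was 0.12.

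Cilp, a matrix protein of cartilage and of heart fibroblasts, read 3.66 and 3.93 in ascending, below the filter level, and 4.97 and 4.79 in descending aorta (difference -1.08, SE 0.13, adjusted p = 0.00624). Sparcl1, a matricellular relative of osteonectin, differed by -0.79 (adjusted p = 0.0412). These were the 2 of 32 matricellular genes called. Of 27 proteoglycan genes, the large proteoglycan aggrecan (Acan) was higher in ascending aorta, at 10.88 and 10.80 against 10.19 and 9.91 (difference 0.79, adjusted p = 0.0205), and fibromodulin (Fmod), which binds collagen fibrils, was higher in descending aorta (-0.83, adjusted p = 0.0291). No matrix protease or inhibitor of 38 tested was called, with a list median of 0.05.

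Of 19 integrin subunits, Itga4 (0.69, adjusted p = 0.0407) and Itgb8 (0.77, adjusted p = 0.0462) were higher in ascending and Itga11 (-0.89, adjusted p = 0.0179) in descending aorta. Itga11 forms a collagen receptor, Itga4 binds fibronectin and VCAM1, and Itgb8 activates latent TGF-beta. Other matrix genes, named after their values were seen, were higher in descending aorta: Itgbl1 (-1.36, SE 0.13), Svep1 (-1.16, SE 0.14), Tnmd (-1.01, SE 0.19), Egfl6 (-0.82, SE 0.11) and Pcolce (-0.57, SE 0.10). Cdh6, a cadherin, was higher in ascending aorta at 8.50 and 8.37 against 7.05 and 7.31 (difference 1.26, SE 0.15, adjusted p = 0.0073), and Cdh11, named after its values were seen, in descending aorta (-0.55, adjusted p = 0.039).

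Efemp1, Col11a1 and Itgbl1 kept the call under all settings that tested them. Col8a1, Cdh6 and Svep1 lost it without WT ascending replicate 1 or WT descending replicate 1, and Cilp without WT descending replicate 1. Acan lost it without either ascending array or WT descending replicate 2, and Fmod and Egfl6 without WT ascending replicate 2 or either descending array. Col12a1, Col4a5, Sparcl1, Itga4, Itga11, Itgb8, Tnmd, Pcolce and Cdh11 lost it without any 1 of the 4 WT arrays. The additional probe set of Svep1 differed by -0.48, below the -1.16 of the one used.

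**Figure D3:**
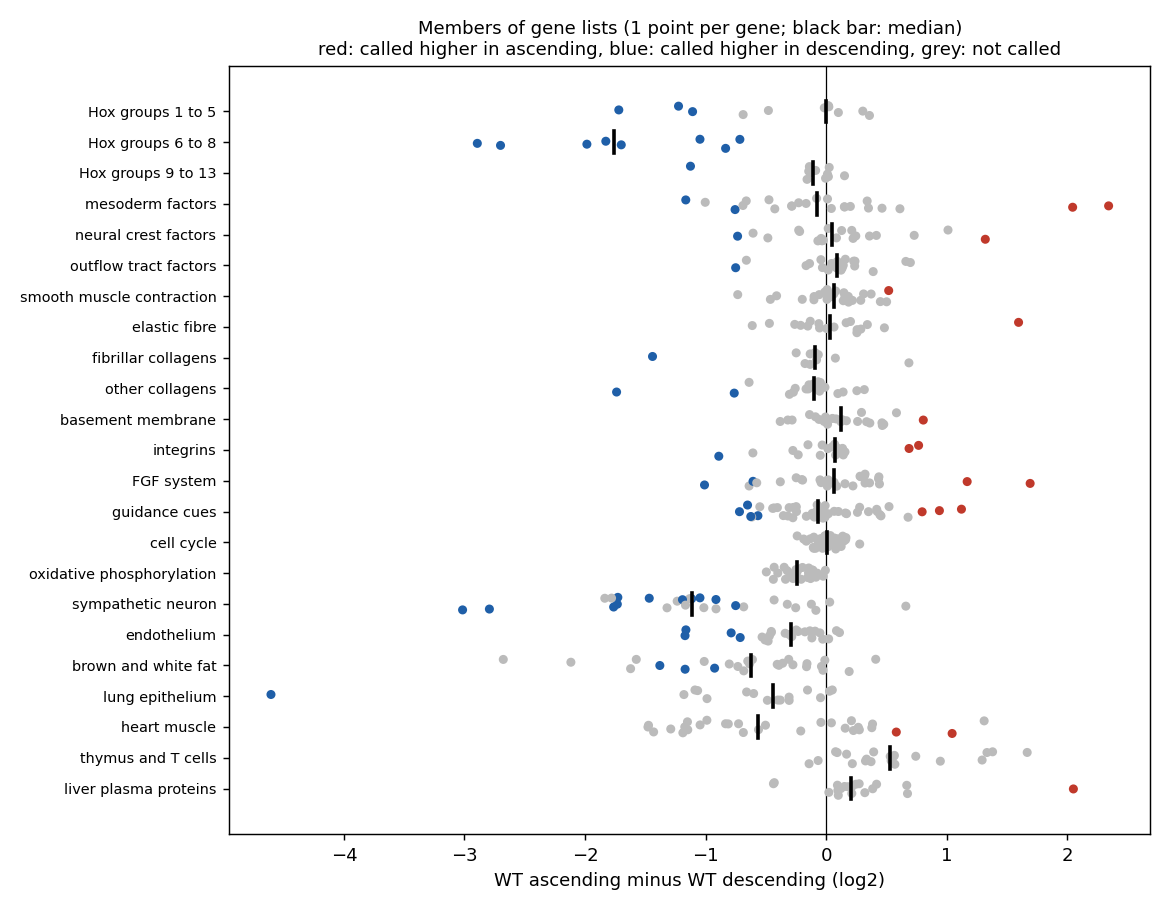
Difference between WT segments (ascending minus descending, log2, horizontal axis) of the tested members of 23 gene lists, 1 point per gene, with a black bar at each median; red points were called higher in ascending, blue points higher in descending aorta, and grey points were not called. Hox groups 6 to 8 (median -1.76) and sympathetic neuron genes (median -1.12) lie mostly left of 0, and cell cycle genes (median 0.01) cluster at 0.

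Ion channels were called in both directions. Kcnj15, an inwardly rectifying potassium channel, read 6.17 and 5.98 in ascending and 4.59 and 4.58 in descending aorta, 2.81-fold higher in ascending (difference 1.49, SE 0.14, adjusted p = 0.00299). Of 40 potassium channel genes, Kcnj15 and the beta subunit Kcnab1 (0.56, adjusted p = 0.0409) were called, both higher in ascending aorta, beside 0.511% of all genes. The rest of the list did not follow them, as 26 of the 40 were below 0 and the median was -0.11. In 18 both descending arrays lay above both ascending arrays, beside 22.6% of all genes, and in 8 the reverse held, beside 19.8%. The smooth muscle channel Kcnma1 differed by -0.52 (adjusted p = 0.136) and the KATP subunit Abcc9 by -0.35 (adjusted p = 0.171). Ano1, a calcium-activated chloride channel of arterial smooth muscle, read 8.0 and 8.0 against 7.18 and 7.06 (difference 0.88, SE 0.11, adjusted p = 0.0081), and the cation channel Trpm3 was higher in ascending aorta by 0.78 (adjusted p = 0.033). The mechanically gated channel Piezo2 (-0.79, adjusted p = 0.0144) and the neuronal calcium channel Cacna1b (-0.59, adjusted p = 0.0343) were higher in descending aorta. Subunits of glutamate and GABA receptors were also higher in ascending aorta, namely Gria1 (1.13, SE 0.16, adjusted p = 0.0152) and, named after its values were seen, Gabrb2 (1.08, SE 0.13, adjusted p = 0.00771).

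Enzymes, secreted proteins and adaptors were among the 20 largest differences in each direction. Colec10, a collagen-like lectin of the complement system that guides neural crest cells, read 6.92 and 6.79 against 4.86 and 5.27 (difference 1.79, SE 0.18, adjusted p = 0.00388). Akr1c18, which inactivates progesterone, read 5.91 and 5.40 against 4.50 and 3.89 (difference 1.46, SE 0.22, adjusted p = 0.0187), and Hpgd, which inactivates prostaglandins, read 8.35 and 7.98 against 7.27 and 6.33 (difference 1.37, SE 0.27, adjusted p = 0.0498). The descending pools of Hpgd were wide apart, and its adjusted p lay just inside the threshold. Angptl7, a secreted angiopoietin-like protein, was higher in ascending aorta by 1.34 (SE 0.14), and the diacylglycerol kinase Dgkk by 1.16 (SE 0.10). Sphkap, an anchoring protein of protein kinase A, differed by 1.37, Fez1, a kinesin adaptor, by 1.16, and Tmem196, which lies next to Itgb8 in the genome, by 1.12. In the descending aorta the secreted protein C1qtnf3 read 6.45 and 6.49 against 4.57 and 4.86 (difference -1.75, SE 0.14, adjusted p = 0.00126), and the desaturase relative Fads2b 6.00 and 5.64 against 3.92 and 3.53 (difference -2.09, SE 0.33, adjusted p = 0.0218). Both ascending values of Fads2b and 1 descending value of Akr1c18 lay below the filter level, so Fads2b passed the filter through the descending pools.

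Kcnj15, Colec10, Angptl7, Dgkk and C1qtnf3 kept the call under all settings that tested them. Ano1 and Akr1c18 lost it without WT ascending replicate 1 or WT descending replicate 2, Gria1 without WT ascending replicate 1 or WT descending replicate 1, Piezo2 and Gabrb2 without WT ascending replicate 1 or either descending array, and Hpgd without either ascending array or WT descending replicate 2. Kcnab1, Trpm3, Cacna1b, Sphkap, Fez1, Tmem196 and Fads2b lost it without any 1 of the 4 WT arrays.

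A single microRNA precursor was called. MicroRNAs are short RNAs that pair with messenger RNAs through a seed at bases 2 to 8, and the array measures their precursor transcripts, not the mature forms. Of 224 microRNA precursor probe sets tested, Mir31 was the only 1 called, a share no higher than the 1.48% of all genes. It was named after its values were seen, as microRNAs were left out of the naming rule. Mir31 read 5.25 and 5.11 in ascending and 4.12 and 4.43 in descending aorta (difference 0.91, SE 0.14, adjusted p = 0.0217), a call lost without any 1 of the 4 WT arrays. The mature RNAs of this precursor (RefSeq, GRCm38.p6, chromosome 4, minus strand) are shown with their seeds in capitals, to make the locus identifiable:
mmu-miR-31-5p: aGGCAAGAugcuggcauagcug
mmu-miR-31-3p: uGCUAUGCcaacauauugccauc
The 5p form lies at chr4:88910614-88910635 and the 3p form at chr4:88910577-88910599. Each seed occurred in 1 of 1738 mature entries of the RefSeq table, so neither arm shares its seed with another entry there. The smooth muscle microRNAs Mir143 (0.45, adjusted p = 0.674) and Mir145a (0.83, adjusted p = 0.204), also named after their values were seen, did not pass. Mir145a read 7.01 and 6.55 against 6.02 and 5.88, without overlap. Mir10b and Mir196a-1, which lie within Hox clusters, were dim, at 2.17 to 2.79 and 3.66 to 3.91 on the WT arrays, and were not tested.

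Genes of sympathetic neurons made up the largest group higher in the descending aorta besides the Hox genes. Of 27 tested, 11 were higher in descending and 0 in ascending aorta, with a median of -1.12, beside 0.974% of all genes called higher in descending aorta. Dbh, the enzyme that makes noradrenaline, read 4.91 and 3.95 in ascending and 6.84 and 7.60 in descending aorta (difference -2.79, SE 0.33, adjusted p = 0.0073). Tubb3, a neuronal tubulin, read 3.77 and 4.69 against 6.96 and 7.53 (difference -3.02, SE 0.39, adjusted p = 0.00994). Ddc, which makes dopamine, read 4.88 and 4.96 against 6.00 and 6.08 (difference -1.12, SE 0.10, adjusted p = 0.00248). In all 3 the descending pools lay above the ascending pools without overlap, though the pools of a segment were wide apart for Dbh and Tubb3. For these genes 1 ascending value each lay below the filter level of 4.11, where a difference depends on the background signal.

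Axonal and synaptic genes followed the same order. Stmn2, a microtubule regulator of growing axons, differed by -1.73 (SE 0.19, adjusted p = 0.00535), Snap25, a synaptic vesicle fusion protein, by -1.73 (SE 0.27, adjusted p = 0.0208), and Chrna3, a subunit of the ganglionic nicotinic receptor, by -1.76 (SE 0.29, adjusted p = 0.0274). Eya1 (-0.75) and, named after their values were seen, Syt1 (-1.47), Prph (-1.19) and Stmn4 (-1.05) were also called. Another probe set of Stmn4 differed by -0.32. Outside the list, the neurofilament gene Ina (-2.80), the granin Scg2 (-2.19), Syt4 (-2.03), Stmn3 (-1.93) and Gng3 (-1.74) were among the 20 largest. Other probe sets of Syt4 differed by -1.41 and -0.58. Th, the rate-limiting enzyme of noradrenaline synthesis, named after its values were seen, read 5.51 and 5.29 against 6.11 and 6.52 (difference -0.91, SE 0.18, adjusted p = 0.0462). Members that did not pass included Chgb (-1.84, adjusted p = 0.0574) and, named after its values were seen, Npy (-1.32, adjusted p = 0.171). L1cam, a member of the Schwann cell and glia list described below, differed by -1.07 and did not pass (adjusted p = 0.153). Neuropeptides Sst (-1.20) and Gal (-0.87) and the immature neuron gene Dcx (-1.60), named after their values were seen, were higher in descending aorta.

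The promoter of Th (chr7:142899946-142900245, minus strand, GRCm38.p6) is shown because its cAMP response element is a classic control element of catecholamine synthesis. RefSeq promoters were at hand for 7 of the 11 called genes of the list, and Th was the only 1 with the element TGACGTCA, searched on both strands and found in 1.79% of all promoters. E boxes (CANNTG) were found in 3 of the 7. The capitals mark the element:
Th promoter: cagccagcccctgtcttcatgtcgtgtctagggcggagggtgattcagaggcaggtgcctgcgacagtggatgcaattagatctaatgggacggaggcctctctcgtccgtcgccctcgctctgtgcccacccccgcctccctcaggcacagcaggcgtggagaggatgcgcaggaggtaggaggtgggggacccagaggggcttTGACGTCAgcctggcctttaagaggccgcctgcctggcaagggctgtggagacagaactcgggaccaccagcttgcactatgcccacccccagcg

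Of 14 Schwann cell and glia genes, Fabp7, a fatty acid binding protein of immature glia, was higher in descending aorta, at 5.88 and 5.52 against 7.17 and 7.20 (difference -1.48, SE 0.17, adjusted p = 0.00535), and the other 13 did not pass, with a list median of -0.19. Of the 14, 11 were below 0 and 5 had all descending arrays above the ascending ones, beside 22.6% of all genes. Their mean level was 5.61 and 5.76 on the ascending and 5.99 and 6.03 on the descending arrays, without overlap, in the direction of the neuronal genes. Sox10, the defining factor of this lineage, named after its values were seen, differed by 0.13 (adjusted p = 0.695). Averaged over the 27 neuronal genes, the level was 5.40 and 5.51 on the ascending and 6.31 and 6.75 on the descending arrays. The count of 11 became 3 without WT ascending replicate 1, 5 without WT ascending replicate 2 and 2 without WT descending replicate 2, and 17 with the arrays shifted to 1 median.

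Ddc, Stmn2, Ina, Scg2 and Stmn3 kept the call under all settings that tested them. Dbh and Fabp7 lost it without WT descending replicate 2, Tubb3, Chrna3 and Dcx without WT ascending replicate 1 or WT descending replicate 2, Syt4 without WT ascending replicate 2 or WT descending replicate 2, and Snap25, Sst and Gal without either ascending array or WT descending replicate 2. Stmn4 lost it without either ascending array or WT descending replicate 2, and also with the mean of its probe sets. Gng3, Eya1, Th, Syt1 and Prph lost it without any 1 of the 4 WT arrays.

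Endothelial genes were higher in descending aorta in 4 of 24 tested, beside 0.974% of all genes, with a median of -0.30. Vwf, the clotting factor stored by endothelium, read 8.47 and 8.49 against 9.73 and 9.56 (difference -1.16, SE 0.11, adjusted p = 0.00296). Plvap, which forms diaphragms of capillary fenestrae, read 6.18 and 6.40 against 7.57 and 7.35 (difference -1.17, SE 0.13, adjusted p = 0.00513). Kdr, the main VEGF receptor, differed by -0.79 (adjusted p = 0.012) and the junction protein Esam by -0.71 (adjusted p = 0.0256). Of the 24 genes 21 were below 0, and in 16 both descending arrays lay above both ascending arrays, beside 22.6% of all genes. Members that did not pass included Erg (-0.45, adjusted p = 0.0649), an endothelial transcription factor, and, named after their values were seen, Pecam1 (-0.12, adjusted p = 0.743) and Cdh5 (-0.18, adjusted p = 0.549). Over the 24 genes the mean level was 7.82 and 7.95 on the ascending and 8.28 and 8.20 on the descending arrays. Vwf and Plvap kept the call under all settings that tested them. The count of 4 became 2 without any 1 of the 4 WT arrays, when Kdr and Esam lost the call, and 7 with a trended robust prior. None of 11 lymphatic endothelial genes was called (median -0.09).

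Fat genes were higher in descending aorta in 3 of 26 tested, beside 0.974% of all genes, with a median of -0.62. In 19 of the 26 both descending arrays lay above both ascending arrays, beside 22.6% of all genes, and in 2 the reverse held, beside 19.8%. The adipokine Adipoq read 7.44 and 8.02 in ascending and 8.97 and 8.83 in descending aorta (difference -1.17, SE 0.21, adjusted p = 0.0337). Lipoprotein lipase (Lpl) differed by -0.93 (adjusted p = 0.0264) and Pck1, of glycerol synthesis, by -1.38 (adjusted p = 0.0292). Ucp1, the uncoupling protein that defines brown fat, read 4.85 and 6.85 against 9.13 and 7.93. The pools of both segments were wide apart, and its difference of -2.68 did not pass (SE 0.60, adjusted p = 0.0786). Adig (-1.41), Cd36 (-1.22), Scd1 (-0.95) and Cebpa (-0.88), named after their values were seen, were also higher in descending aorta. The mean level over the list was 6.50 and 7.01 in ascending and 7.53 and 7.37 in descending aorta. Cebpa and Scd1 lost the call without any 1 of the 4 WT arrays, and Adipoq, Lpl, Pck1, Adig and Cd36 without WT ascending replicate 1 or either descending array. The count of 3 became 0 without WT ascending replicate 1, 0 without either descending array and 9 without WT ascending replicate 2. It was 6 with the arrays shifted to 1 median and 0 in a fit of the 4 WT arrays alone.

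Lung epithelium gave the largest single difference of the comparison. Sftpc, surfactant protein C of alveolar type-II cells, read 4.50 and 4.80 in ascending and 8.37 and 10.15 in descending aorta, 24.3-fold higher in descending (difference -4.60, SE 0.46, adjusted p = 0.00348). It kept the call under all settings that tested it, with differences from -5.49 to -3.72. It was the only 1 of 16 lung genes called; Sftpb read 5.0 and 5.40 against 5.93 and 6.65 (difference -1.09, adjusted p = 0.0755) and Sftpa1 4.54 and 4.33 against 5.16 and 6.06 (difference -1.18, adjusted p = 0.075). Both descending pools were above both ascending pools for these surfactant genes, and WT descending replicate 2 was the higher of the pair in each. The mean level over the 16 genes was 5.40 and 6.07 in ascending and 6.39 and 6.61 in descending aorta. Lung mesenchyme genes named above, Fgf10 and Foxf2, and the hedgehog inhibitor Hhip, which lung also expresses, were measured in the same pools, and the part of lung tissue in their values was not tested.

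Heart muscle genes differed in both directions, and some were uneven between pools. Of 29 tested, Corin (1.05, SE 0.10, adjusted p = 0.00326), the protease that activates atrial natriuretic peptide, and Hspb7 (0.58, adjusted p = 0.039) were higher in ascending aorta, but the median of the list was -0.56. In 16 of the 29 both descending arrays lay above both ascending arrays, beside 22.6% of all genes, and in 5 the reverse held, beside 19.8%. The mean level over the list was 6.92 and 7.26 in ascending and 7.35 and 7.65 in descending aorta. Corin read 7.86 and 7.76 against 6.83 and 6.70 and kept the call under all settings that tested it, while Hspb7 lost it without any 1 of the 4 WT arrays. The defining markers did not follow them. The atrial myosin gene Myh6 read 6.55 and 7.07 in ascending and 7.96 and 8.61 in descending aorta (difference -1.48, adjusted p = 0.205), whereas Nppa, atrial natriuretic peptide, read 8.32 and 5.95 against 5.73 and 5.92 (difference 1.31, adjusted p = 0.54), high in 1 ascending pool only. Both were named after their values were seen. Nuclear genes of oxidative phosphorylation were all below 0 (33 of 33, median -0.24), and 0 were called. In 29 of them both descending arrays lay above both ascending arrays, beside 22.6% of all genes. Cox5a differed by -0.50 (adjusted p = 0.0752). The fat and heart muscle lists had medians of -0.62 and -0.56 in the same pools, and their part in this was not tested.

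Thymus genes were high in a single pool. Cd3d, a chain of the T-cell receptor complex, read 7.71 and 5.78 in ascending and 5.46 and 4.69 in descending aorta, a difference of 1.67 that did not pass (SE 0.52, adjusted p = 0.211). Cd8b1 read 7.54 and 6.00 against 5.40 and 5.55, and the recombinase gene Rag2 5.70 and 4.34 against 4.20 and 3.95. WT ascending replicate 1 was the highest array for each of the 3. The list of 21 had a median of 0.53 with 0 called, and its mean level was 5.98 on WT ascending replicate 1, against 5.02, 5.03 and 4.84 on the other WT arrays.

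Among plasma proteins made by the liver, Ahsg (fetuin-A) read 8.75 and 8.89 in ascending and 7.08 and 6.46 in descending aorta (difference 2.05, SE 0.37, adjusted p = 0.0356), but Alb, named after its values were seen, and Afp (0.67, adjusted p = 0.59) did not pass. Ahsg was the only 1 of 19 called and lost the call without any 1 of the 4 WT arrays. Of the 19, 17 were above 0, with a median of 0.21. In 8 both ascending arrays lay above both descending arrays, beside 19.8% of all genes, and in 2 the reverse held, beside 22.6%. In KO the same list had a median of -0.83, with 17 below 0. Its mean level was 5.93 and 5.85 in KO ascending and 6.17 and 7.25 in KO descending aorta. Keratin Krt14 was higher in descending aorta (-0.83, adjusted p = 0.011), the only 1 of 13 epithelial genes of oesophagus and airway, and the B-cell gene Cd79b (-0.85, adjusted p = 0.0358) the only 1 of 13 mast cell and B-cell genes. That list had a median of -0.78, with 12 of 13 genes below 0 and the same 12 without overlap, beside 22.6% of all genes in that direction. Its mean level was 6.05 and 6.34 in ascending and 6.94 and 6.79 in descending aorta. Krt14 lost the call without WT ascending replicate 2 or either descending array, and Cd79b without any 1 of the 4 WT arrays. Of 25 macrophage genes 24 were below 0 (median -0.23) and 0 were called. In 16 of the 25 both descending arrays lay above both ascending arrays, beside 22.6% of all genes, and in 0 the reverse held. Likewise 0 of 17 neutrophil and platelet, 10 erythroid, 26 skeletal muscle and 11 mesothelial genes were called. In all, 22 of the 247 called genes belonged to lists of neighbouring tissues or blood, 18 of them higher in descending and 4 in ascending aorta. The tested genes of these lists were not counted together, so the 22 have no share of all genes beside them. Over all lists, 85 of 1122 tested genes were called (7.58%), beside 1.48% of all genes. The lists were chosen with earlier results of these data known. The 22 are not the full share of such tissues, since 162 of the 247 were in no list, among them nerve and fat genes named above such as Ina, Scg2 and Adig. Acan, of the cartilage and bone list, and Eya1, of the sympathetic neuron list, were also named above with the proteoglycans and the outflow tract factors. Proliferation did not separate the segments by this test: 0 of 38 cell cycle genes were called, with differences from -0.24 to 0.28.

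**Figure D4:**
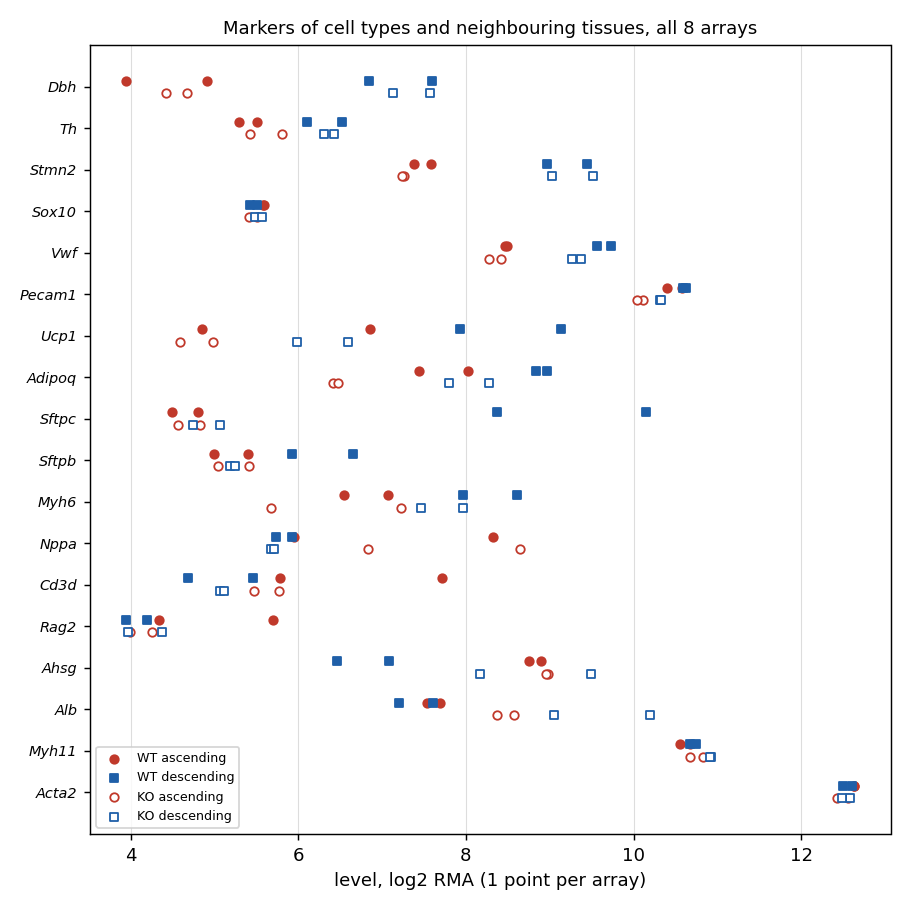
Level (log2 RMA, horizontal axis) of markers of nerve, endothelium, fat, lung, heart, thymus, liver and smooth muscle on all 8 arrays, 1 point per array; red circles are ascending and blue squares descending, filled for WT and open for KO. Sftpc is high on the WT descending arrays only (8.37 and 10.15), Cd3d is highest on 1 WT ascending array (7.71), and Dbh and Stmn2 are higher on the descending arrays of both genotypes.

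The KO pools gave the same contrast on arrays that the WT comparison does not use, although all groups share the estimate of spread. In KO aorta 247 genes (1.48%) differed between the segments, 91 (0.547%) higher in ascending and 156 (0.938%) in descending aorta. Of the 247 WT genes, 242 (98%) had the same sign in KO, beside 58.6% of all genes tested, and 138 were called the same way in both, 40 higher in ascending and 98 in descending aorta. That overlap is 55.9% of each list, and 0 genes were called in opposite directions. In 234 of the 247 (94.7%) the KO arrays of the segments did not overlap, in the same direction, beside 41% of all genes in either direction (20.2% with the ascending arrays above and 20.8% below). Leaving out 1 array brought the 138 down to between 44 and 83 (44 without WT descending replicate 2, 45 without KO descending replicate 2, 46 without ascending replicate 1 of either genotype, 58 without WT descending replicate 1, 72 without KO ascending replicate 2, 80 without WT ascending replicate 2 and 83 without KO descending replicate 1).

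The positional genes were among those that repeated. All 12 Hox genes called in WT were called in KO, with Hoxb6 at 4.38 and 4.11 in KO ascending and 7.69 and 7.73 in KO descending aorta (difference -3.46, adjusted p = 0.000251) and Hoxc6 at -3.06 (adjusted p = 9.02e-05). Tcf21 (2.69, adjusted p = 5.94e-05), Ptn (2.22, adjusted p = 9.02e-05), Colec10 (1.85) and Osr2 (1.81, adjusted p = 0.0101) were higher in KO ascending aorta too. C1qtnf3 (-2.04), Chrdl1 (-1.81), Hhip (-1.46) and Vegfd (-1.01) were higher in KO descending aorta, as were 13 of the 27 neuronal genes, including Dbh (-2.80, adjusted p = 0.0078). Mir31 differed by 1.47 in KO (adjusted p = 0.00342). Sizes followed the choice of genes: the median absolute difference of the WT genes was 0.89 in WT and 0.76 in KO, and that of the KO genes 0.77 in WT and 0.92 in KO. Across all tested genes, which are not independent replicates, the WT and KO differences correlated at 0.518.

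Some WT differences were not seen in KO. Sftpc read 4.56 and 4.83 in KO ascending and 4.74 and 5.07 in KO descending aorta (difference -0.21, adjusted p = 0.924), and Ahsg 8.98 and 8.95 against 8.17 and 9.49 (difference 0.13, adjusted p = 0.947). Smad6 read 8.25 to 8.39 on all 4 KO arrays (difference -0.03), Slpi, named after its values were seen, differed by -1.27 in WT and -0.21 in KO, and Dlx5 was 0.58 in KO without passing (adjusted p = 0.0976). The 5 genes whose sign turned, given as a complete set whatever the naming rule, were Pla2g7, Elapor1, Sfrp5, Epha5 and Smad6. The WT calls of Pla2g7 and Elapor1 were lost without any 1 of the 4 WT arrays. The difference between genotypes was tested itself as an interaction of segment and genotype. limma called 0 genes at an adjusted p under 0.05, with 932 (5.6%) at an unadjusted p under 0.05, and the smallest adjusted p was 0.439, for Ccr2. Of the 19 liver plasma protein genes that include Ahsg, 11 had an unadjusted limma interaction p under 0.05. The unadjusted interaction p was 0.000106 for Sftpc, 0.000437 for Slpi, 0.000839 for Ptn, 0.00104 for Smad6, 0.00278 for Tcf21 and 0.00434 for Dlx5, and 59 of the 247 WT genes (23.9%) were under 0.05. These 247 were chosen by their WT difference, which is itself a part of the interaction. Their share is thus raised by the choice and cannot be read against the 5.6% of all genes. With 0 genes called in the interaction, no gene was shown to differ between the segments in 1 genotype and not in the other.

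**Figure D5:**
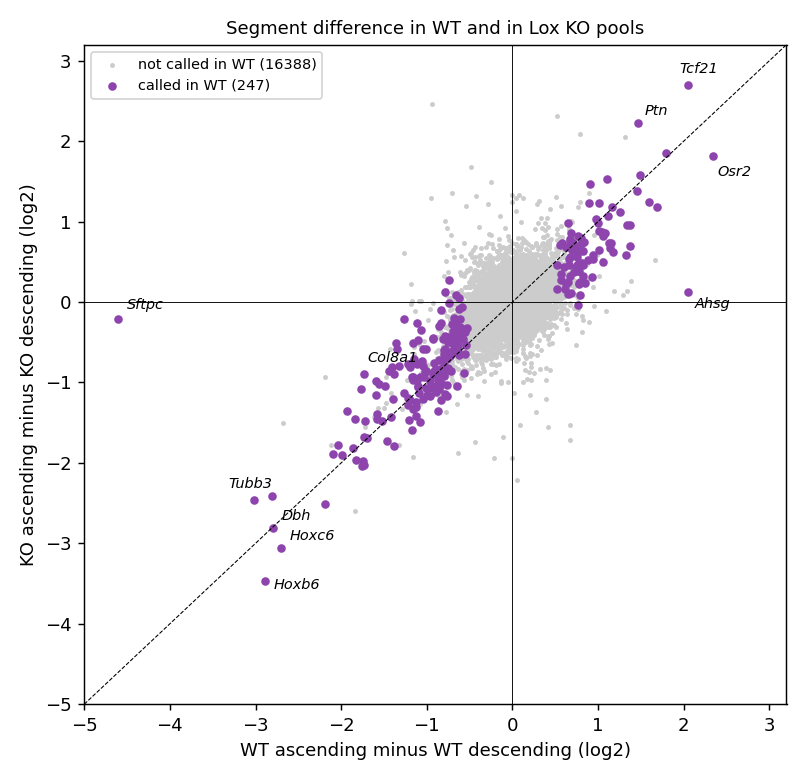
Difference between segments (ascending minus descending, log2) in WT (horizontal axis) and in KO (vertical axis), 1 point per tested gene; purple points are the 247 genes called in WT, grey points the rest, and the dashed line marks equal differences. Of the purple points 242 lie in the quadrants of equal sign, and Sftpc (-4.60 in WT, -0.21 in KO) and Ahsg (2.05 and 0.13) lie near the horizontal line at 0.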

How the data were processed

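Total RNA (50 ng per pool) was amplified and labelled with NuGEN Ovation Pico WTA and Encore Biotin kits and hybridised to Affymetrix mouse gene arrays, per the labels' protocols. The authors deposited log2 RMA values made in Affymetrix Expression Console, per the submitters' processing notes; the sources used here give no versions or options. RMA sets all arrays to 1 distribution, so that a change shared by most genes would not be seen. Array medians were 5.11 to 5.19.

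Of 41345 probe sets, 23521 had 1 gene symbol, 1814 several and 16010 none in the platform annotation. Each of 22180 genes was represented by its brightest probe set, by the mean of the 8 arrays. Genes with a mean under the 25th percentile (4.11) were left out, which left 16635. limma 3.58.1 in R 4.3.3 was fitted to all 8 arrays with 1 coefficient per group (4 residual degrees of freedom, prior 4.51), with Benjamini-Hochberg adjustment over all genes tested. Replicates are separate pools, but their litters are not given, so p-values measure the spread between these pools.

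Named genes were the 20 largest called in each direction without overlap, every tested Hox gene, up to 6 members of each of 53 lists in order of p (not all of them called, if a list allowed it), and Lox, Eln and Myh11. Predicted genes, small RNAs and olfactory or vomeronasal receptors were skipped among the largest. Members and lists were chosen with earlier results of these data known. On data simulated for the WT comparison (16635 genes, 200 changed), the test recovered 18.2% of changes of 0.5, 74.3% of 1 and 96.1% of 2 (log2), and 3.68% of calls were false. Alternatives covered the filter, prior, scaling, probe set choice, fold thresholds, a replicate block and each array left out.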

Additional observations from a re-analysis of the deposited data

How the results depend on the processing

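The count of 247 genes in WT (85 higher in ascending, 162 in descending aorta) became 444 (165 and 279) with a trended robust prior and 72 (18 and 54) in a test against a 1.2-fold change; with only the arrays compared it was 167, of which 52 were higher in ascending aorta. Leaving out 1 array gave 63 to 228 genes, 18 to 77 higher in ascending and 44 to 151 in descending aorta. The KO count of 247 (91 and 156) became 430 (166 and 264), 74 (24 and 50) and 114 (36 and 78) under the same 3 settings, and 54 to 191 with 1 array left out (15 to 69 and 38 to 123). The interaction gave 1 gene with the trended prior and 0 to 11 with 1 array left out (11 without KO descending replicate 1). The cause of these changes was not tested. The replicate block called 234 genes in WT, 208 of them shared with the 247, and 220 in KO. Same-numbered arrays deviated from their group means with correlations of -0.0954 to 0.126. The labels do not say whether same-numbered pools share pups, litters or a dissection day, and with 2 pools a group these correlations cannot settle it. None of the 155 named genes called in WT reversed its direction under any setting that tested it; called genes that the text does not name were not followed singly. Of 17 other probe sets of called genes, 2 had the opposite sign (0.01 for Gpr155 and 0.02 for Syp, both chosen after their values were seen). Syp lost the call without WT ascending replicate 1 or either descending array, and also with the mean of its probe sets. Gpr155 was not followed singly. With 2 pools a group, differences near 0.5 were mostly not detectable.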
